A study of Mus musculus with 4 samples.

Results

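Fgf8, Fgf9 and Fgf10 encode fibroblast growth factors that are secreted in the limb bud. Peaks of Pitx1 chromatin immunoprecipitation followed by sequencing (ChIP-seq) were read in a fixed window around each gene, on mouse build mm9. The windows were chr19:45500000-46200000 for Fgf8 (700 kb, with the gene at about 45.81 Mb), chr14:58200000-59200000 for Fgf9 (1000 kb, gene at about 58.7 Mb) and chr13:118900000-120000000 for Fgf10 (1100 kb, gene at about 119.5 Mb). A peak belonged to a window if its midpoint lay inside. By this rule the 3 windows held 18 of the 14753 peaks of replicate 1 and 39 of the 25027 peaks of replicate 2. A peak was shared if it overlapped a peak of the other list by at least 1 bp, and overlapping peaks were joined into a replicated region. The windows held 14 of the 10274 replicated regions, of which 3 lay around Fgf8, 7 around Fgf9 and 4 around Fgf10.

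All tissue was hindlimb bud, taken at embryonic day 11.5 from wild-type embryos of the ICR strain. There were 4 libraries, namely Pitx1 ChIP replicates 1 and 2 and an input library with the same replicate numbers, made without antibody. No peak list of the input libraries was used here. Material from 3 ChIPs went into the libraries, and the labels do not say whether the replicates came from separate embryos, so differences between them may be technical. No genotype, treatment or age differed between the libraries. Whole buds were used, so a peak does not show in which cells of the bud it arose, and the share of cells bound cannot be told apart from the strength of binding in each. The peak lists hold no RNA values, and the tissue label was therefore not checked against marker genes.

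Limb buds grow by an exchange of fibroblast growth factors between 2 tissues. Fgf10 is made in the mesenchyme and acts on the overlying ectoderm through an isoform of the receptor Fgfr2; mice without it form no limbs. Fgf8 is made in the apical ectodermal ridge, the thickened ectoderm at the tip of the bud, and acts back on the mesenchyme. Fgf9 is made in the ridge as well, and also takes part in growth of the proximal skeleton. Pitx1 is a homeodomain protein of the hindlimb mesenchyme that belongs to the bicoid-related class, whose members bind DNA with the core TAATCC. The ridge itself is ectoderm, so Fgf8 and Fgf10 differ in whether the tissue that makes them is the one known for Pitx1.

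The upstream sequence of the members is shown where a RefSeq promoter was at hand, and peaks played no part in this choice. RefSeq promoters of build GRCm38.p6 matched 2 of the 3 genes, Fgf9 and Fgf10. The 250 bases before the gene start are printed from 5′ to 3′, with the 4 bases TAAT, on either strand (so also ATTA), in capitals.
Fgf9, GRCm38.p6 chr14:58072436-58072685, plus strand: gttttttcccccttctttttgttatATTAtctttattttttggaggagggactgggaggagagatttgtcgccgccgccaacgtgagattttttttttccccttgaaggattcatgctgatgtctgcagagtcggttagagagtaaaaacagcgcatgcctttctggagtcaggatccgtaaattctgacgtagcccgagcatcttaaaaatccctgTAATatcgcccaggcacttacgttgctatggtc
Fgf10, GRCm38.p6 chr13:118714449-118714698, plus strand: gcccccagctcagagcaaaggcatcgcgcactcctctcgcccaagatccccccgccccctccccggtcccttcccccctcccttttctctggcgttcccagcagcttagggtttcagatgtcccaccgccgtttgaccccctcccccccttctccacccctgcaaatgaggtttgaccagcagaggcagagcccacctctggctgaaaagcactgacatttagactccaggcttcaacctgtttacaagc
Neither stretch held the letters TAATCC or their reverse complement GGATTA, which occur in 6.25% of 32851 RefSeq promoter stretches of the same length. The shorter TAAT, which is part of TAATCC, occurred 2 times upstream of Fgf9 and 0 times upstream of Fgf10, and 54.9% of promoter stretches held at least 1. The Fgf9 stretch was 44.8% G or C and that of Fgf10 61.2%, against a median of 52.4%. These letters describe the sequence only. The peaks are on mm9 and were not carried over to GRCm38, so whether a peak covers either stretch was not determined.

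The density of replicated Pitx1 regions around the 3 genes could not be told from that of the autosomes at these counts. Over the autosomes there were 4.11 replicated regions per Mb. The Fgf9 window had 7.0 per Mb (7 regions), which was 1.7 times the autosomal rate (95% exact Poisson interval 0.685 to 3.51). The Fgf8 window had 4.29 per Mb (3 regions), a ratio of 1.04 (0.215 to 3.05), and the Fgf10 window 3.64 per Mb (4 regions), a ratio of 0.884 (0.241 to 2.26). All 3 intervals contain 1. Against the rate of its own chromosome, the ratio was 0.995 at Fgf8, 1.85 at Fgf9 and 0.767 at Fgf10, again with intervals that contain 1. Peaks tend to lie near each other along the genome, so these intervals, which cover counting error only, are too narrow.

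**Figure D1:**
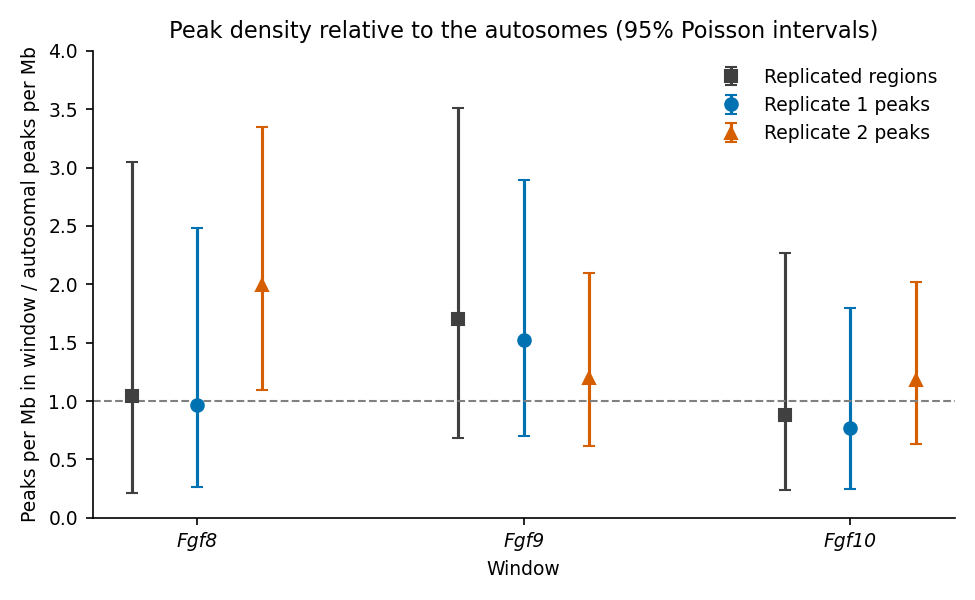
Density of Pitx1 peaks in each FGF ligand window divided by the density over the autosomes (y axis, ratio), for replicated regions and for each replicate's own list. Points are ratios and bars are 95% exact Poisson intervals. The replicate 2 interval at Fgf8 (1.09 to 3.35) is the one that lies wholly above 1. With the rate of chromosome 19, a comparison chosen after the data were seen, it does not (0.937 to 2.88).

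Set against every adjoining autosomal window of the same length, the counts were common ones. At least 3 replicated regions were held by 42.3% of the 3515 windows of 700 kb, at least 7 by 21.1% of the 2460 windows of 1000 kb, and at least 4 by 48.5% of the 2235 windows of 1100 kb. The median window held 2 regions at the length used for Fgf8 and 3 at the other lengths, and some windows held as many as 26 (700 kb), 34 (1000 kb) and 37 (1100 kb). Each of the FGF ligand windows therefore lay above the median window and far from the densest ones. The autosomal windows were not matched for gene content, and stretches where no peak can be called were kept among them.

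**Figure D2:**
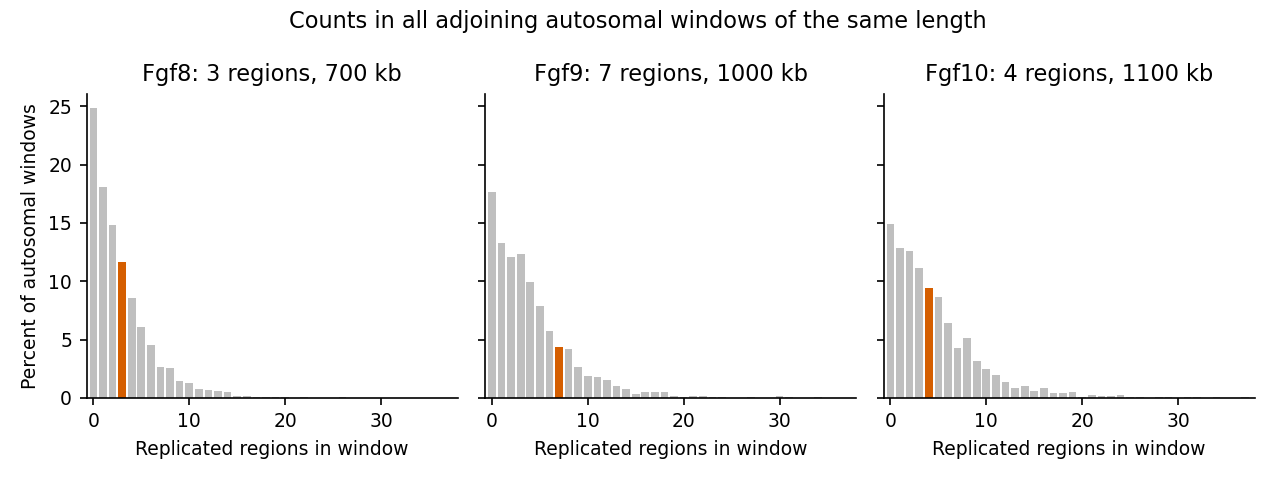
Share of all adjoining autosomal windows (y axis, percent) by the number of replicated regions they hold (x axis), in windows as long as those of Fgf8, Fgf9 and Fgf10. The orange bar marks the number found at the gene (3, 7 and 4); the most frequent number is 0 at each length.

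At Fgf8 the density of replicate 2 peaks was above the autosomal rate, but not beyond counting error against its own chromosome. Replicate 1 had 4 peaks in the Fgf8 window, 0.969 times its autosomal rate of 5.90 per Mb (0.264 to 2.48). Replicate 2 had 14 peaks there, 2.0 times its own autosomal rate of 10.02 per Mb (1.09 to 3.35), and 14.1% of autosomal windows of that length held at least as many. Against the replicate 2 rate of chromosome 19, 11.7 per Mb, the ratio was 1.71 (0.937 to 2.88), an interval that contains 1. The comparison with chromosome 19 was chosen after the data were seen. At Fgf9 the ratios to the autosomal rate were 1.53 in replicate 1 (9 peaks) and 1.20 in replicate 2 (12 peaks), and at Fgf10 0.770 (5 peaks) and 1.18 (13 peaks), each with an interval that contains 1. The share of windows with at least as many peaks was 24.1% and 35.1% at Fgf9 and 55.6% and 34.6% at Fgf10, for replicates 1 and 2. It was 44.7% for replicate 1 at Fgf8.

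Most replicate 1 peaks recurred at each of the 3 genes, whereas most replicate 2 peaks recurred at Fgf9 and fewer at Fgf8 and Fgf10. Replicate 1 peaks were shared in 3 of 4 cases at Fgf8, 7 of 9 at Fgf9 and 4 of 5 at Fgf10, or 77.8% together (exact Clopper-Pearson interval 52.4 to 93.6%), beside 69.9% of autosomal replicate 1 peaks. Replicate 2 peaks were shared in 3 of 14 cases at Fgf8 (21.4%, 4.66 to 50.8%), 8 of 12 at Fgf9 (66.7%, 34.9 to 90.1%) and 4 of 13 at Fgf10 (30.8%, 9.09 to 61.4%), beside 42.6% of autosomal replicate 2 peaks. Each interval contains the autosomal share, so at these counts no window can be told from the autosomes, and differences between the genes were not tested. The 24 unshared replicate 2 peaks were spread as 11 at Fgf8, 4 at Fgf9 and 9 at Fgf10.

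**Figure D3:**
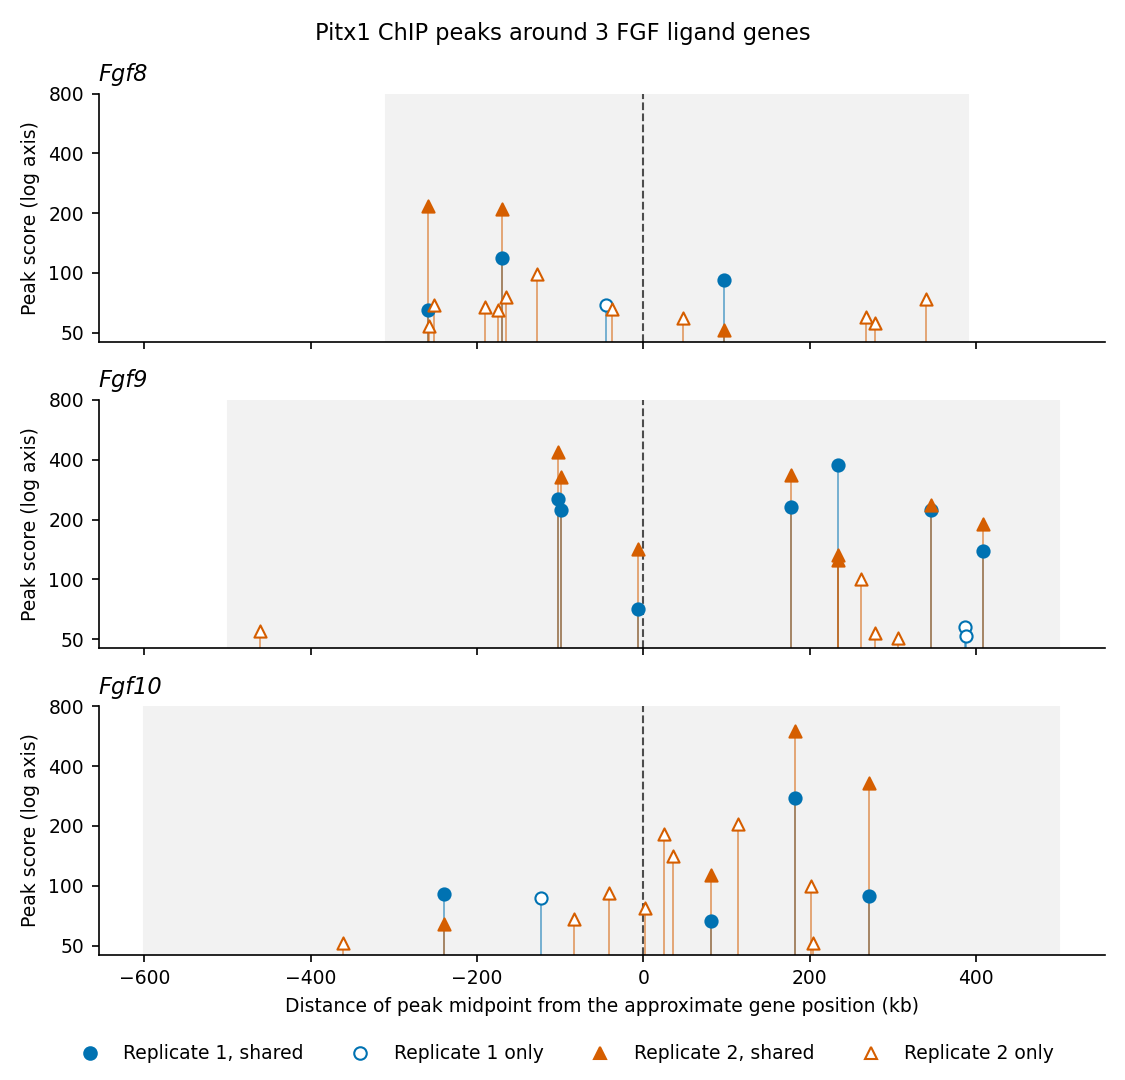
Every Pitx1 peak in the windows of Fgf8, Fgf9 and Fgf10 by the distance of its midpoint from the approximate gene position (x axis, kb; dashed line at 0) and its deposited score (y axis, log scale). Circles are replicate 1 and triangles replicate 2, filled where the peak is shared; scores can be ranked only within a replicate. The grey area is the window, and shared peaks stand highest at Fgf9 and at 183 kb from Fgf10.

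Of the 3 genes, Fgf9 had the most strong regions. The deposited score of a peak is the caller's own value, and ranks below run from 1, the highest score, within each list. Of its 7 replicated regions, 5 were in the best 25% of both lists (scores of at least 128 in replicate 1 and 151 in replicate 2), beside 27.6% of autosomal replicated regions. By the sum of ranks, 4 of the 7 were in the best 25%, beside 25.1% of autosomal replicated regions. Regions strong in both lists occurred at 5.0 per Mb in the Fgf9 window and at 1.13 per Mb over the autosomes, a ratio of 4.41 (1.43 to 10.3). This interval covers counting error only and is too narrow, since peaks cluster and a pair of these regions lay 3.77 kb apart. At least 5 such regions were found in 4.92% of autosomal windows of that length, a share chosen after the values were seen. The Fgf10 window held 1 such region and the Fgf8 window 0, and 54.8% of windows as long as that of Fgf10 held at least 1. With 0 regions the interval of the ratio at Fgf8 reaches up to 4.65, so the count there is too small to show a shortage.

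On the lower-coordinate side of Fgf9, a pair of strong regions lay about 100 kb from the gene position, with midpoints 3.77 kb apart. The first, chr14:58596717-58597850, scored 253 in replicate 1 (rank 1124) and 435 in replicate 2 (rank 1180). Its neighbour, chr14:58600518-58601596, scored 223 (rank 1407) and 329 (rank 1913). Both were within the best 10% of each list, at 7.62% and 9.54% of the replicate 1 list and 4.71% and 7.64% of the replicate 2 list. No other peak of either list fell between the window's start and this pair except a weak replicate 2 peak at chr14:58238327-58238665 (score 55.1).

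Nearest to Fgf9 was a weaker region, chr14:58692882-58693593, with its midpoint 6.76 kb below the approximate gene position. It scored 71.3 in replicate 1 (rank 8973, or 60.8% of the list) and 142 in replicate 2 (rank 6775, 27.1%). It was the closest replicated region to any of the 3 gene positions, but the position of Fgf9 is stated only to 0.1 Mb, so its place relative to the gene start is not known here.

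The other 4 replicated regions lay 178 to 409 kb above the Fgf9 position. The nearest, chr14:58877346-58878419, scored 231 (rank 1327) and 334 (rank 1864). The next, chr14:58933073-58935364, was the widest of the 14 regions at 2292 bp, and the libraries ranked it differently. Replicate 1 called 1 peak there with score 377 (rank 462, within the best 3.13%), the strongest replicate 1 peak of the 3 windows. Replicate 2 called 2 adjoining peaks with scores 126 and 132 (ranks 7980 and 7470). More than 1 replicate 2 peak was joined in 3.64% of autosomal replicated regions. Farther out, chr14:59045363-59046157 scored 224 (rank 1395) and 236 (rank 3222), and chr14:59108089-59108941 scored 140 (rank 3196) and 191 (rank 4473). The 6 unshared peaks of this window, 2 in replicate 1 and 4 in replicate 2, scored between 50.5 and 101, so in this window each unshared peak ranked below the shared peaks of its own list.

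Fgf10 had 1 very strong region, away from the gene position. The region chr13:119682656-119683376 lay 183 kb above it and scored 277 in replicate 1 (rank 931, 6.31% of the list) and 598 in replicate 2 (rank 601, 2.40%). By the sum of its ranks it was the strongest of the 14 regions, within the best 5.56% of all replicated regions. The second of the 4 at Fgf10 by this measure, chr13:119770666-119771878 (32.1%), lay 271 kb above the gene position and was ranked apart by the libraries, with scores of 88.5 (rank 6455) and 329 (rank 1912). It was also the last replicated region on chromosome 13.

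The nearest replicated region to Fgf10, chr13:119580647-119581579, was 81.1 kb above the gene position and scored 66.7 (rank 9876) and 113 (rank 9131). The only one below the gene, chr13:119260359-119261128, was 239 kb away and scored 90.8 (rank 6247) and 64.5 (rank 18353). Between these regions lay 320 kb, including the Fgf10 position, in which no peak recurred. Gaps of at least that length made up 20.7% of the gaps between neighbouring autosomal regions and 71.2% of the length that all gaps cover, so a position on an autosome often lies in such a gap.

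Within that gap every peak is unshared by definition, since its limits are neighbouring replicated regions. A difference between the lists there was therefore fixed in advance. The replicate 2 list is also longer, with 24719 autosomal peaks against 14558. Of these, 42.6% were shared in replicate 2 and 69.9% in replicate 1. Like that of Fgf9, the position of Fgf10 is stated only to 0.1 Mb, so the distances and sides given here are relative to that round position and not to the gene itself. Replicate 2 had 5 peaks there that replicate 1 lacked. The closest to the gene position was chr13:119502172-119502841, 2.51 kb above it, with score 76.9 (rank 14819). A stronger peak, chr13:119524480-119524916, lay 24.7 kb above and scored 183 (rank 4780, 19.1% of the list), with 141 (rank 6835) for the next at chr13:119535113-119535725. The remaining 2, at chr13:119416616-119417041 and chr13:119457968-119458669, scored 67.7 and 91.9 and lay below the gene position. Replicate 1 had 1 peak of its own in the gap, chr13:119376982-119377733, with score 86.7 (rank 6699). It was 38.9 kb from the nearest replicate 2 peak, and replicate 1 had 0 peaks within 50 kb of the approximate Fgf10 position against 4 in replicate 2. The same counts, for replicates 1 and 2, were 1 and 2 at Fgf8 and 1 and 1 at Fgf9. The autosomal rates were 5.90 and 10.02 per Mb, so few peaks are expected in so short a span. The difference between the replicates was not tested.

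A further replicate 2 peak without a partner, chr13:119613576-119614427, scored 204 (rank 4065, 16.2%) and lay 32.0 kb from the nearest replicate 1 peak. Of the 9 unshared replicate 2 peaks at Fgf10, 2 were thus in the best 25% of their list, against 0 of 11 at Fgf8 and 0 of 4 at Fgf9. Over the autosomes this held for 7.89% of unshared replicate 2 peaks, and the difference between genes was not tested. None of the 4 unshared replicate 1 peaks of the 3 windows was in the best 25% of its list, beside 3.08% over the autosomes. Read counts were not used here, so whether replicate 1 had signal below its threshold at these positions was not tested.

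Around Fgf8, 3 replicated regions were found, and the nearest to the gene was the least secure. The region chr19:45906031-45907129 lay 96.6 kb above the gene position and scored 92.2 in replicate 1 (rank 6107) and 51.4 in replicate 2 (rank 24165), near the lowest score in that list, 50.01. The peaks met over 274 bp, which was 26.3% of the replicate 1 peak and 82.3% of the replicate 2 peak, and their midpoints were 413 bp apart. If an overlap of 50% of each peak were required, or midpoints within 250 bp, this region would not count and 2 regions would be left. The other 13 regions had an overlap of at least 53.1% of the replicate 1 peak and at least 62.9% of the summed replicate 2 peaks. Of these, chr14:58933073-58935364 at Fgf9 would be lost under either rule, because each of its replicate 2 peaks is judged alone, and chr13:119770666-119771878 at Fgf10 under the rule on midpoints.

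The other Fgf8 regions lay below the gene. At chr19:45639729-45640719, 170 kb from the gene position, the scores were 119 (rank 4130, 28.0%) and 210 (rank 3888, 15.5%). At chr19:45550394-45551288, 259 kb away, they were 64.8 (rank 10296, 69.8%) and 217 (rank 3667, 14.7%). Replicate 2 thus placed both in its best 25% and replicate 1 placed neither there. In the GRCm38.p6 RefSeq table, used for gene order only, the neighbour of Fgf8 on the lower-coordinate side is Fbxw4, in and around which known ridge enhancers of Fgf8 lie, and the neighbour on the other side is Npm3. Whether these regions fall in Fbxw4 was not determined, since gene coordinates on mm9 were not used.

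**Figure D4:**
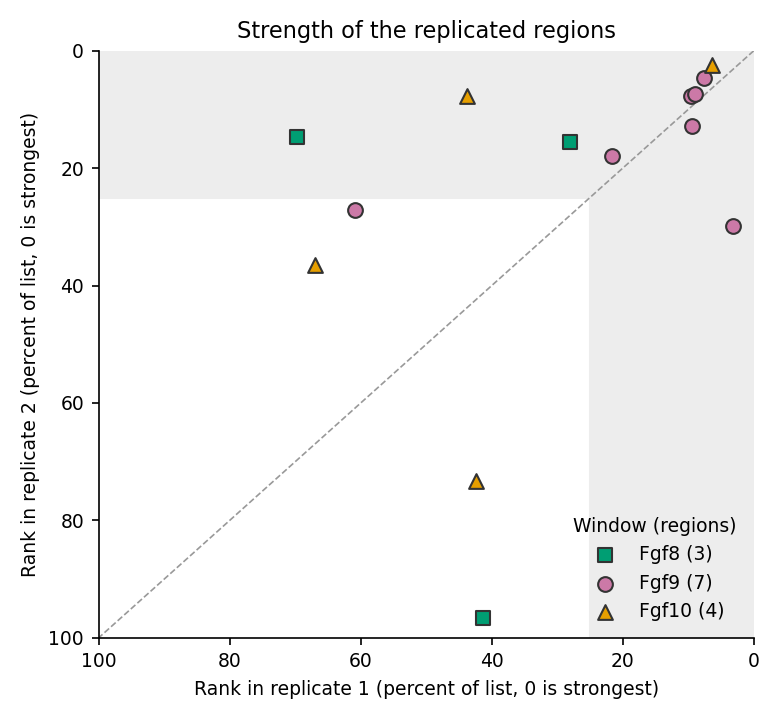
Rank of each of the 14 replicated regions in replicate 1 (x axis) and replicate 2 (y axis), as a percent of the list with 0 the strongest, so that the upper right is strong in both. Grey bands mark the best 25% of a list and the dashed line equal ranks; 5 of the 7 Fgf9 regions, 1 of 4 at Fgf10 and 0 of 3 at Fgf8 lie where the bands cross.

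Between the middle and the last Fgf8 region lay 266 kb that include the gene position and hold no replicated region. Gaps at least as long make up 24.4% of autosomal gaps and 75.7% of gap length. This gap held 4 unshared replicate 2 peaks and 1 unshared replicate 1 peak. The nearest of either list to the gene position was the replicate 2 peak chr19:45772354-45772771, 37.4 kb below it, with score 65.9 (rank 17852). The replicate 1 peak chr19:45765378-45766107 (score 68.9, rank 9435) lay 6.25 kb from it without overlap. Of the 11 unshared replicate 2 peaks at Fgf8 the scores ran from 54.3 to 98.9 with a median of 65.9, below the median of 71.6 for all unshared autosomal replicate 2 peaks. All 11 lay outside the best 25% of their list, as unshared replicate 2 peaks mostly do (7.89% of them lie inside it over the autosomes).

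Regions on either side of each window show what the limits left out. The next replicated region below the Fgf10 window was close, with its midpoint 42.9 kb outside, at chr13:118856663-118857450 (scores 61.0 and 281). Below the Fgf9 window it was 426 kb away, at chr14:57773562-57774641 (scores 227 and 412), and above it 154 kb, at chr14:59353367-59353879 (58.8 and 76.2). For Fgf8 the nearest outside were chr19:45387314-45388125, 112 kb below (109 and 137), and chr19:46378564-46379458, 179 kb above (57.4 and 59.6). Inside the windows, the regions closest to a limit were 50.8 kb from it at Fgf8, 91.5 kb at Fgf9 and 229 kb at Fgf10, so no count rests on a region at the edge.

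The deposited list of 1 bp positions covered every replicated region of the 3 windows. It gave 15 positions there, with 1 in each of 13 regions and 2 in chr14:58933073-58935364, where replicate 2 had 2 peaks. Over the autosomes 99.7% of replicated regions held a position, so the full cover at these genes is the same as elsewhere. The positions in each window were as many as its shared replicate 2 peaks, 3 at Fgf8, 8 at Fgf9 and 4 at Fgf10. Whether the list was derived from these peaks was not tested, so the cover is no separate support for the regions. Other genes of the pathway, such as the ridge ligands Fgf4 and Fgf17, the receptors Fgfr1 and Fgfr2 and the feedback inhibitors Spry1, Spry2, Spry4 and Dusp6, were not analysed here because no gene annotation of build mm9 was used.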

How the data were processed

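Pitx1 ChIP-seq was made from hindlimb buds by fixation in 1% formaldehyde and shearing to 200 to 600 bp. CASAVA 1.7 and 1.8.2, Bowtie 0.12.8, MACS 1.4.2, bedtools 2.16.2 and build mm9 are named, without roles, per the submitters' processing notes. The sources used here do not say how the caller was set or whether it used the input. The score of each peak is the authors' own deposited value, with no header that states its scale, and was used only to rank peaks within a list. Peaks are numbered from the first in each list, so replicates were called separately. Read counts were not used, so depth is unknown.

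Windows were read from the stated rule; coordinates are counted from 1. Autosomal rates used lengths from the chromosome start up to the last peak, 2468 Mb in all, with no stretch removed. Intervals (95%) are exact Poisson for rates, taking the autosomal rate as fixed, and Clopper-Pearson for shares. No p-values were computed, since 2 libraries of 1 condition allow no comparison of groups. All replicated regions were named, with unshared peaks in the best 25% of their list or nearest to a gene; other unshared peaks, and the share of autosomal windows that hold as many strong regions as Fgf9, were chosen after their values were seen. The members, windows and lists were chosen with earlier results of these data known. Overlap, window and motif counts were tested on simulated data. Planned motif counts in peaks and counts at other pathway genes were not run, as no mm9 genome or annotation was used. Computation used scipy 1.17.1, pandas 2.3.3 and numpy 2.4.6 under Python 3.11.15, and figures matplotlib 3.10.9.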

Additional observations from a re-analysis of the deposited data

How the results depend on the processing

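No paired analysis was possible because the peak lists used here are of the ChIP libraries, and none is of the input libraries with the same numbers. Of 78 alternative values, 71 stayed within the interval of the value reported (for gaps, within 1.5 times) and 7 did not. The intervals are wide at these counts, such as 19.4 to 99.4% for the replicate 1 share at Fgf8. Staying within one is therefore a weak sign of stability. In the best 25% of each list the ratio to the autosomal rate was 0 at Fgf8 and 4.41 at Fgf9. With each replicate left out in turn the ratio ranged from 0.969 to 2.0 at Fgf8, 1.20 to 1.53 at Fgf9 and 0.770 to 1.18 at Fgf10. Over all alternatives it ranged from 0 to 2.0 at Fgf8, 1.20 to 4.41 at Fgf9 and 0.712 to 1.33 at Fgf10. With equal numbers of best peaks 66.7% of replicate 2 peaks at Fgf8 were shared, because only 3 of its peaks were left. At Fgf9 100% of replicate 1 peaks were shared in the best 50% of each list, and 100% in both lists in the middle 50% of the window, which hold fewer peaks. With reciprocal overlap of 50% the gap around Fgf8 grew to 905 kb, since its nearest region and the next ones above it no longer counted. Against the rate of its own chromosome, an alternative chosen after seeing the data, replicate 2 alone gave 1.71 at Fgf8 (0.937 to 2.88). Motif counts around peak midpoints were not run. Small counts and unknown read depth limit every rate and share here.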
